A study of Rattus norvegicus with 3 samples.

Results

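RNA of the rat vestibular nuclei 1 day after removal of the left labyrinth was compared with RNA of the same nuclei after sham surgery. The members are the 2 arrays that carry these groups, of 3 arrays in the series, chosen by their labels. The third array, from day 7, is drawn on only for values set side by side. The sham group came from Sprague-Dawley rats, adult males weighing between 200 and 250 g, that the sample labels call sham-operated. The protocol text calls the same controls normal rats and does not state which side of the brainstem was taken from them. The day 1 group came from rats of the same sex, strain and weight whose left labyrinth had been removed through an incision behind the ear, and its nuclei were those of the operated side. Per the labels, nuclei of 3 rats went into each group since 1 nucleus was too small, which makes each array a probable pool. No array was repeated. The spread between animals, dissections and labellings is therefore unknown, and sizes are given without tests.

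The labyrinth holds the balance organs of the inner ear, and its nerve keeps the neurons of the vestibular nuclei firing at rest. Loss of 1 labyrinth silences many neurons of the nuclei on that side and leaves an imbalance between the sides, seen as tilted posture and drifting eyes. The return of resting activity in the silenced nuclei, called vestibular compensation, begins within the first days and is thought to draw on changes in inhibition, membrane excitability, glia and stress signalling.

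Each array held 45018 spots, of which 43379 were not controls and belonged to 41012 probes. Levels are log2 of the processed intensity relative to the 75th percentile of the array, which was 5692 intensity units on the sham array and 5242 on the day 1 array, so a level of 0 lies at that percentile. Spots well above background made up 81.3% on the sham array and 77.3% on the day 1 array, and the lowest such signal was 66.9 against 109.0 intensity units, so faint probes were measured less well at day 1. For probes printed on 10 spots, the median SD between spots was 0.11 log2 units in sham and 0.089 at day 1, which is error within an array. The arrays lay at positions 4 and 3 of a slide, and position and group cannot be told apart. Both arrays measured the markers of hindbrain inhibitory and excitatory neurons. The vesicular inhibitory amino acid transporter Slc32a1 stood at 3.41 in sham and 3.50 at day 1. The glycine transporter Slc6a5 stood at 0.45 and 0.33, and the vesicular glutamate transporter Slc17a6 at 3.01 and 3.03. The hindbrain segment factor Hoxa2 stood at 0.57 and 0.58. It was 1 of 5 measured hindbrain factors, of which 4 lay below the median level of all measured genes. The median difference of these factors, day 1 minus sham, was −0.50 log2 units, with a range from −1.38 (Esrrg) to 1.29 (Lhx9). A further hindbrain factor was well above background in sham alone. Whether the dissections matched in position was not tested.

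Of 41012 probes, 29846 were well above background and unsaturated on both arrays and count as measured. At least 2-fold higher at day 1 were 2280 probes (7.64%), and 1150 (3.85%) were at least 2-fold lower. A gene name could be given to 10768 probes, for 8899 genes, and 6351 genes had a measured probe. Among these genes 523 (8.23%) passed 2-fold upwards at day 1 and 278 (4.38%) downwards, with a median difference of 0.00 log2 units. Higher genes thus made up 65.3% of those past 2-fold, but 53.5% with no scaling between the arrays and 55.9% after cyclic loess, so the lean towards higher values depends on the scaling. Without scaling, the median of all genes lay at −0.12, and the differences below are relative to the 75th percentile. A 4-fold limit was passed upwards by 82 genes and downwards by 42, and an 8-fold limit by 19 and 7. The median size of a difference was 0.34 log2 units and the 90th percentile 1.12.

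The share of genes past 2-fold fell with signal. With genes cut into 5 equal groups by level, 23.8% of the dimmest group were past 2-fold with a median difference of 0.32, while 3.23% of the brightest group were past it with a median of −0.07. When genes were split at the median level, the 3175 brighter ones held 131 (4.13%) past 2-fold upwards and 72 (2.27%) downwards. In the 3176 dimmer ones these shares were 12.3% upwards and 6.49% downwards. Counts in a gene list are read below against the share for all genes and, where most of its members are dim, against the share for the dimmer part.

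**Figure D1:**
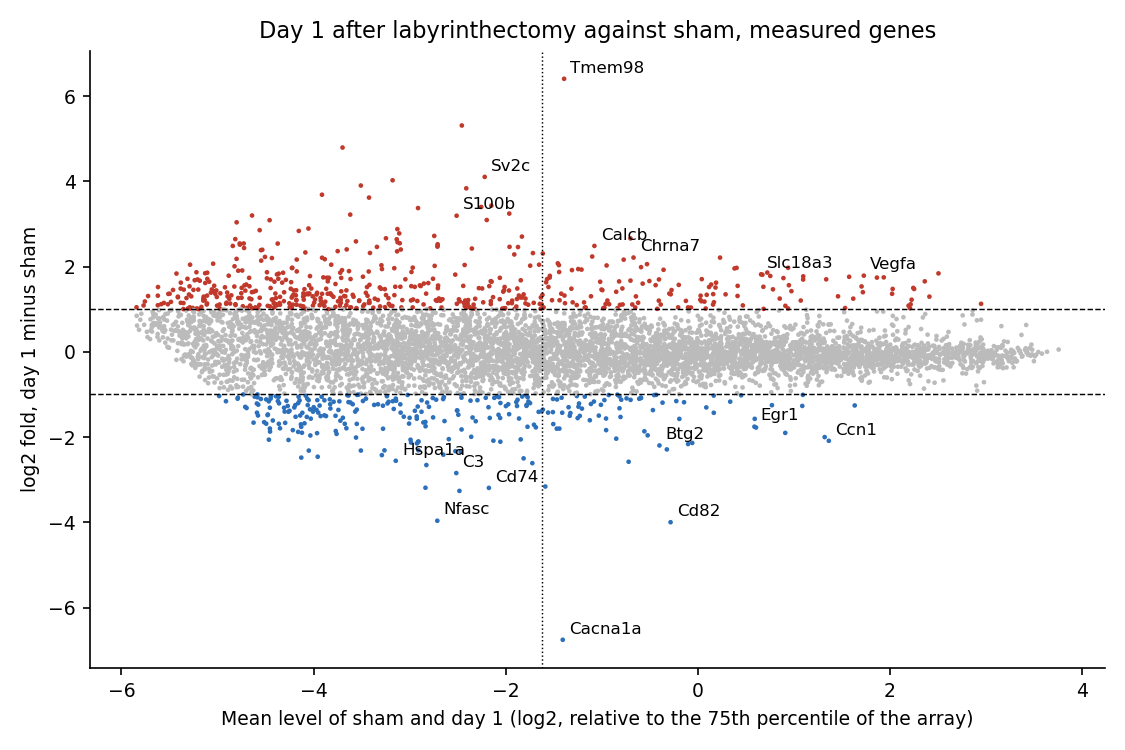
Log2 difference of day 1 minus sham (vertical axis) against the mean level of both arrays (horizontal axis, log2 relative to the 75th percentile of the array) for 6351 measured genes, 1 point per gene, with no replicate error. Dashed lines mark 2-fold and the dotted line the median level. The cloud narrows from left to right, with 23.8% of the dimmest and 3.23% of the brightest of 5 equal groups past 2-fold.

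Among early response genes of neuronal activity, more members were lower than higher past 2-fold at day 1, and most lay within it. These genes are switched on within minutes by calcium and growth signals. They encode transcription factors, secreted growth signals and the phosphatases and growth brakes that end the response. A day 1 level at least 2-fold lower was found in 8 of 30 measured members, 1 was past 2-fold upwards, and 21 lay within 2-fold. Of all genes 4.38% were lower past 2-fold, and 6.49% in the dimmer part, where 17 of the 30 lie. The median of the list was −0.36 against 0.00 for all genes, and it stayed between −0.48 and −0.21 under the 11 alternatives.

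Among the 13 measured transcription factors, 4 were past 2-fold, each in the lower direction, and the median was −0.70. Egr1, a zinc finger factor used as a marker of neuronal activity, stood at 1.47 in sham and −0.29 at day 1, a 3.38-fold lower level read on 9 kept spots with a standard error between spots of 0.052. Nr4a1, an orphan nuclear receptor induced by activity, stood at −1.85 and −4.00, which is 4.43-fold lower. Fos, the partner of Jun in the AP-1 factor, stood at −1.16 in sham and −2.40 at day 1, which is 2.37-fold lower. Klf4, a Krüppel-like factor, stood at 0.23 and −0.96, which is 2.29-fold lower. Fos, Egr1, Nr4a1 and Klf4 were therefore all lower on the day 1 array. Jun itself, read on 10 spots, stood at 2.12 and 2.09. Atf3, a stress and injury factor, stood at −1.80 and −2.77, just within 2-fold. Klf10 was at −0.11 and 0.64, the highest difference among the measured factors at 0.75.

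The secreted signal Ccn1, a matrix protein that binds integrins, was at 2.41 in sham and 0.32 at day 1, which is 4.25-fold lower. Its relative Ccn2 was at −3.93 and −3.74. The neurotrophin Bdnf was at −3.90 and −4.21 by its brightest probe, while its next probe differed by 1.03 the other way. Bdnf and Ccn2 thus did not share the difference of Ccn1.

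Of 13 measured brakes and effectors, 3 were past 2-fold downwards and 1 upwards. Btg2, an antiproliferative protein, stood at 0.70 and −1.498, which is 4.59-fold lower. Ier2, an early response nuclear protein, stood at −1.36 and −3.36, which is 3.98-fold lower. Gadd45b, a stress protein linked to DNA demethylation in neurons, stood at 1.40 and 0.15, which is 2.38-fold lower. The kinase Sik1, which restrains CREB coactivators, went against the list with 0.81 in sham and 2.11 at day 1, a 2.47-fold higher level. The plot of early response genes by array shows that the lower members were not the faint ones alone, since Egr1, Ccn1, Gadd45b and Btg2 lay above 0 in sham. Other members were well above background on 1 array only and have bounds. The phosphatase Dusp1 was at least 2.73-fold lower at day 1, the factor Egr2 at least 2.23-fold lower and the dendritic protein Arc at least 1.21-fold lower, while the AP-1 factor Fosl1 was at least 8.18-fold higher.

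**Figure D2:**
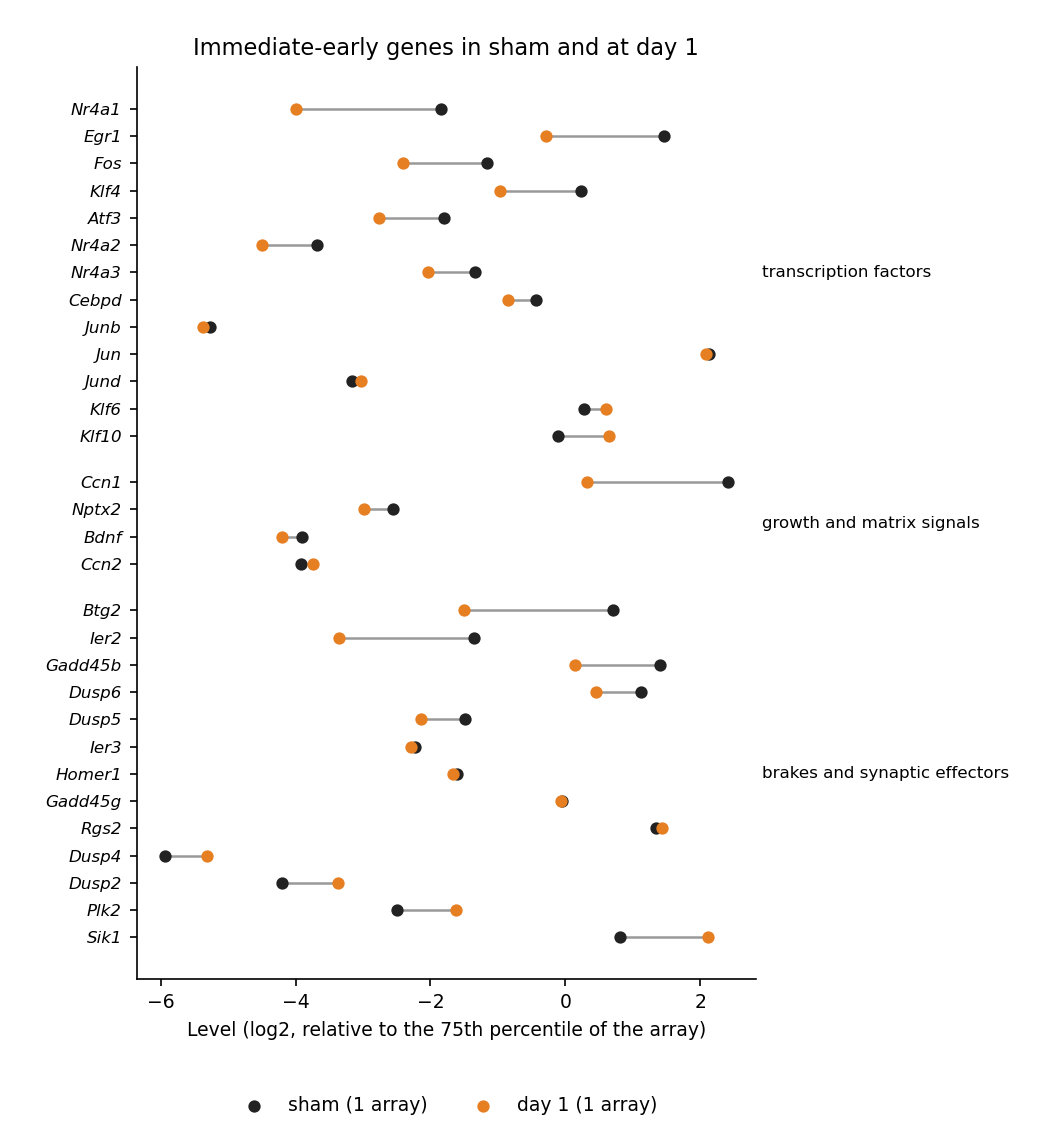
Level (horizontal axis, log2 relative to the 75th percentile of the array) of 30 measured early response genes on the sham array (dark) and the day 1 array (orange), 1 array each, grouped by role and ordered by difference. Egr1 lies at 1.47 in sham and −0.29 at day 1, and Sik1 at 0.81 and 2.11.

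Many early response genes carry sites for CREB, AP-1 or serum response factor near their start, so the promoters of 4 of the lower genes are shown. Promoters came from RefSeq on GRCr8 and were found for 22 of the 30 measured early response genes. Motifs were searched on both strands from 250 bases before to 50 bases after the start. The full CRE is TGACGTCA, its partial form TGACGT or ACGTCA, which also counts inside the full site, and the AP-1 site is TGACTCA or TGAGTCA. The CArG box is the site of serum response factor. The 250 bases before the start are printed 5′ to 3′ along the gene, with full or partial CRE letters in capitals. Btg2 lies on the minus strand at chr13:48087691-48087940, Ier2 on the plus strand at chr19:40399123-40399372, Ccn1 on the minus strand at chr2:237225690-237225939 and Nr4a1 on the plus strand at chr7:134259888-134260137.
Btg2: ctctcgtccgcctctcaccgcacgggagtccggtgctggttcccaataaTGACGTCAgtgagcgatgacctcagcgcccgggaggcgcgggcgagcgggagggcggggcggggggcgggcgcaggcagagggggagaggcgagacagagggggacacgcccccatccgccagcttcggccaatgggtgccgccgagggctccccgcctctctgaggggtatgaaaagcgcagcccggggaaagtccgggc
Ier2: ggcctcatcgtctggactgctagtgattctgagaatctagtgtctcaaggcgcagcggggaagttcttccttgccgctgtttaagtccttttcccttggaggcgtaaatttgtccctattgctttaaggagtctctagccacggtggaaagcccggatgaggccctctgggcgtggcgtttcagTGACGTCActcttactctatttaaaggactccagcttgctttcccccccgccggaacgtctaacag
Ccn1: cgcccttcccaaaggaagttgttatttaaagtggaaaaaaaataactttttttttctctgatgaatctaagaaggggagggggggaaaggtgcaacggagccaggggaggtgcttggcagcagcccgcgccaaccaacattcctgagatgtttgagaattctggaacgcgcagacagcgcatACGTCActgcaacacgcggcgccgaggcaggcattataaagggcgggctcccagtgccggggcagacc
Nr4a1: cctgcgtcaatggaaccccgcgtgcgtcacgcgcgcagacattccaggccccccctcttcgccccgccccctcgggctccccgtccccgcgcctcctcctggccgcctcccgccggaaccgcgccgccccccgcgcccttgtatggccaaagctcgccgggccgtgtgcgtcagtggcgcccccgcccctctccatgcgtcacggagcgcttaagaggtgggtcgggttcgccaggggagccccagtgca
Btg2 and Ier2 held a full CRE, beginning 201 and 66 bases before the start, Ccn1 held a partial site beginning 68 bases before it, and Nr4a1 held none of the letters searched in this window. Of all 27457 promoters of this length, 1.91% held the full CRE, 8.22% the partial form, 4.53% the AP-1 site and 1.64% the CArG box. Among the promoters of 5153 measured genes the shares were 2.95%, 10.9%, 3.84% and 1.14% in the same order. Among the 7 early response genes that were at least 2-fold lower and had a promoter, 2 held the full CRE, 4 the partial form, none the AP-1 site and 1 the CArG box. Among the 15 others the counts were 2, 5, 0 and 2 in that order, so both sets held such letters, and the matches describe sequence alone.

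Among 19 measured genes of Fc receptors and microglia, 6 were at least 2-fold lower at day 1, none was past 2-fold upwards and 13 lay within 2-fold, against 6.49% of genes lower in the dimmer part, where 12 of the 19 lie. Fc receptors bind antibody on microglia and macrophages. Of 4 measured members of that family 3 were at least 2-fold lower and none higher, and all 4 are dim. Fcgr3a, a low affinity activating receptor, stood at −1.86 in sham and −3.96 at day 1, which is 4.30-fold lower. The inhibitory receptor Fcgr2b stood at −3.65 and −5.34, and Fcgr2a at −2.91 and −4.53. The neonatal receptor Fcgrt, which recycles antibody, stood at −2.43 and −3.06. The median of the 4 was −1.65, and −1.79 after cyclic loess.

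Of 15 measured microglia and macrophage markers, 3 were past 2-fold, each lower at day 1, and the median was −0.20. Tlr2, a receptor for bacterial lipoproteins, stood at −0.57 and −2.37, which is 3.49-fold lower. Cyba, a subunit of the phagocyte oxidase, stood at −2.25 and −3.64, and Aif1, the calcium-binding protein known as Iba1, at −0.05 and −1.13. Csf1r, the receptor that keeps microglia alive, stood at −1.39 and −2.32, within 2-fold. Other markers barely differed. Laptm5, a lysosomal protein, stood at 0.64 and 0.86, the adaptor Tyrobp at 0.08 and 0.50, and the protease Ctss at 2.83 and 2.63, with 0.83 by its next probe. The summed level of the 15 markers, on the linear scale relative to the 75th percentile, was 18.1 in sham and 14.7 at day 1, and 10 of the 15 were lower. Of further markers well above background on 1 array alone, 3 were so in sham and 1 at day 1. The lysosomal glycoprotein Cd68 was at least 3.19-fold lower, whereas the fractalkine receptor Cx3cr1 was at least 3.78-fold higher. In bulk tissue, fewer cells of a type and less RNA per cell cannot be told apart.

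Complement and antigen presentation differed both ways. Complement proteins tag cells and synapses for removal. C3, the central component, stood at −1.09 and −3.94, which is 7.18-fold lower, and was the 1 of 10 measured components past 2-fold. C1qb, part of the first component, stood at 0.56 and −0.11. Among 5 regulators C4bpb, a chain of the C4b-binding protein, stood at −3.86 and −0.43, which is 10.8-fold higher. Class II molecules present peptides on microglia and other antigen-presenting cells. Cd74, their invariant chain, stood at −0.58 and −3.77, which is 9.15-fold lower, and RT1-Da, a class II alpha chain, at −3.25 and −4.81. The class II beta chain RT1-Db1 went the other way, from −1.49 to −0.46 with 0.61 by its next probe. Class I heavy chains RT1-S3 and RT1-A2 were higher by 2.32 and 1.45, with 0.56 by the next probe of RT1-A2. Class I and class II genes belong to families of near-identical copies whose probes may share signal. In all 14 measured genes of antigen presentation, 3 were higher and 3 lower, against 8.23% and 4.38% of all genes.

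**Figure D3:**
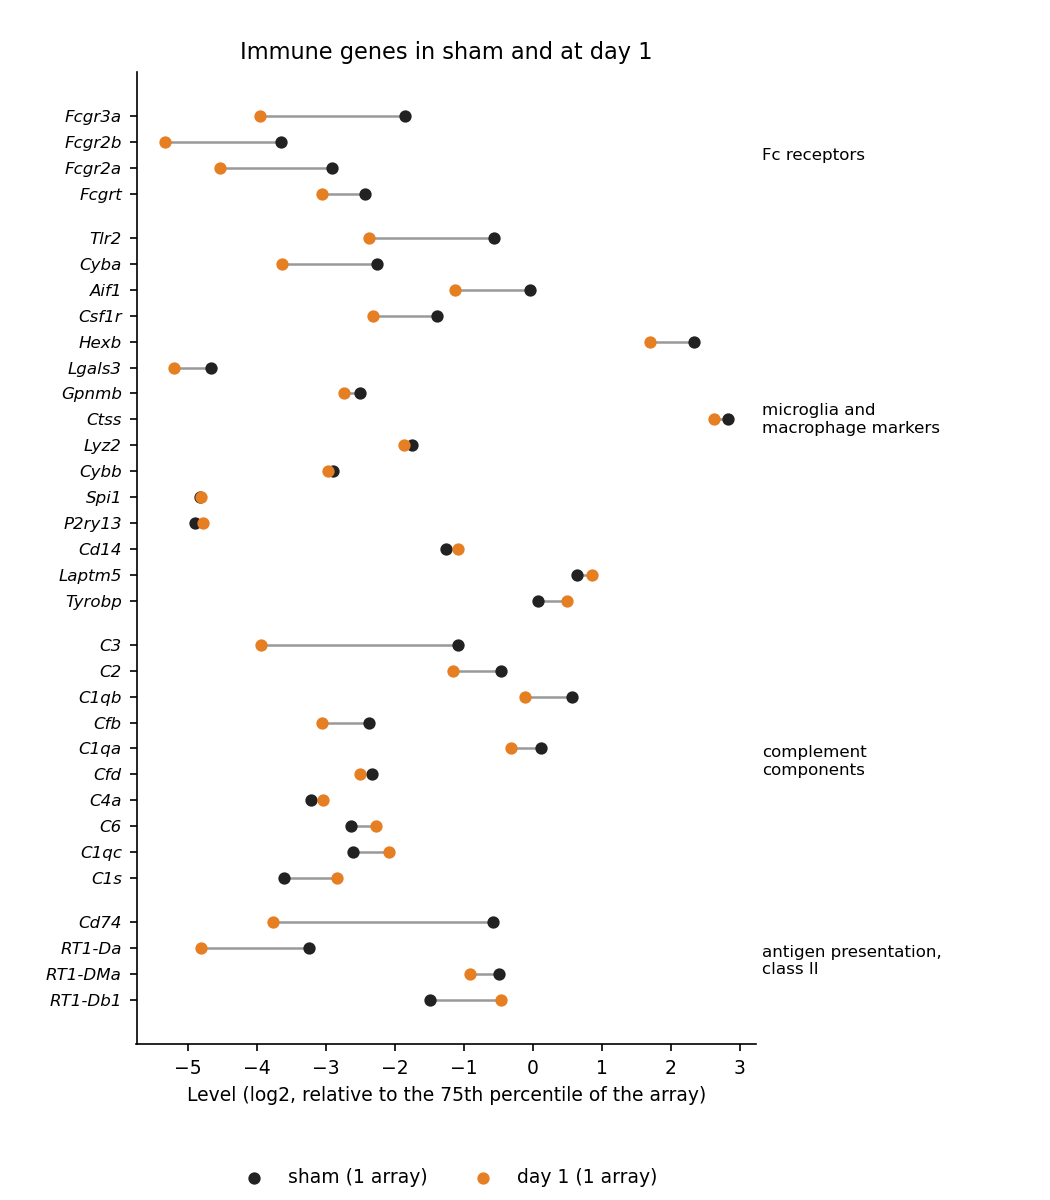
Level (horizontal axis, log2 relative to the 75th percentile of the array) of measured Fc receptors, microglia and macrophage markers, complement components and class II genes on the sham array (dark) and the day 1 array (orange), 1 array each. Cd74 lies at −0.58 and −3.77, C3 at −1.09 and −3.94, and Laptm5 at 0.64 and 0.86.

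Cytokine, adhesion and interferon genes gave no broad increase. Of 30 measured cytokine and chemokine genes, with receptors and signalling proteins, none was at least 2-fold higher and 2 were lower. Of the 30, 18 lay in the dimmer part, where 12.3% of all genes were higher and 6.49% lower. A further 3 were well above background at day 1 alone and 11 in sham alone, against 166 and 532 of all genes with a bound. Icam1, an adhesion molecule for leukocytes on vessels and microglia, was read on 10 spots at −2.11 in sham and −4.42 at day 1, which is 4.97-fold lower with a standard error between spots of 0.049. The adhesion molecule Vcam1 stood at 3.15 and 2.69. Tgfbr1, a receptor of transforming growth factor beta, was lower by 1.12 on its brightest probe and higher by 0.71 on the next. Of 14 interferon response genes, 10 of them in the dimmer part, 2 were past 2-fold, in the lower direction. They were the antiviral effectors Ifit2 (lower by 1.86) and Oas1a (lower by 1.08). No neutrophil marker was measured on both arrays, and S100a8, a neutrophil protein, was at least 1.99-fold lower. Haemoglobin Hbb stood at 2.22 and 2.43 and Hbb-b1 at 3.38 and 3.22, and Alas2, a haem enzyme of red cells, was higher by 1.02. Of 4 measured lymphocyte markers, each in the dimmer part, Cd8a was higher by 1.25.

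Stress pathways were close to sham apart from single genes. Hmox1, which degrades haem under oxidative stress, was read on 10 spots at 0.47 in sham and 1.67 at day 1, which is 2.30-fold higher. Hspa1a, the inducible heat shock protein, was lower by 2.56 on a probe of 10 spots but higher by 0.32 on its other probe, so its direction was not settled. The other 11 of 13 measured heat shock genes lay within 2-fold. In the unfolded protein response, which relieves the endoplasmic reticulum of misfolded protein, 19 of 21 measured genes lay within 2-fold. Creld2, a chaperone-like protein, stood at −4.33 and −0.49, which is 14.3-fold higher, and the sensor kinase Eif2ak3 at −3.23 and −5.30, which is 4.19-fold lower.

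Receptors and targets of glucocorticoids, the stress hormones of the adrenal, had a median of −0.27 in 19 measured genes, with 2 higher and none lower. Of all genes 8.23% were higher and 4.38% lower. Fam107a, an actin-binding protein induced by stress, stood at −2.18 and −0.25, which is 3.81-fold higher, and Hsd11b2, which inactivates corticosterone, at −4.85 and −3.52. None of 14 measured clock genes was past 2-fold, with differences from −0.56 to 0.78. Per1 stood at −1.97 and −2.53 and Dbp at 2.15 and 2.19. Among hypoxia targets, the transcription factor Epas1 stood at −1.75 and −3.23, and Vegfa, the vascular growth factor, was higher by 1.79 on its brightest probe and by 0.25 on the next. Hexokinase Hk2 stood at −2.27 and −0.35, which is 3.78-fold higher, while Pfkl and Pfkfb3, both of the phosphofructokinase step, were lower by 1.10 and 1.23. Of all 32 glycolysis and hypoxia genes, 2 were higher and 4 lower, against 8.23% and 4.38% of all genes.

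Genes of fast inhibition kept their levels for the most part. GABA and glycine carry inhibition between and within the vestibular nuclei. Of 25 measured GABA genes 3 were higher and 1 lower, against 8.23% and 4.38% of all genes. Their median of 0.03 changed sign between scalings. Gad2, a GABA-synthesizing enzyme, stood at −1.76 in sham and −0.60 at day 1, which is 2.23-fold higher, and Gad1, the other such enzyme, at −5.47 and −4.76. The GABA transporter Slc6a11, found on astrocytes, was higher by 1.44 and the receptor subunit Gabrr3 by 2.16. The receptor subunit Gabrb2, well above background in sham alone, was at least 10.0-fold lower. The GABA-B receptor subunit Gabbr1 stood at 1.31 and 1.39, and the chloride exporter Slc12a5, which keeps GABA inhibitory, at 2.88 and 2.92. None of 8 measured glycine genes was past 2-fold. The glycine transporter Slc6a9 came closest, at −1.68 and −2.67, and its difference of −0.99 was past 2-fold under 5 of 10 alternatives. The receptor subunit Glra1 was higher by 0.95 on its brightest probe and lower by 0.05 on the next.

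Glutamate genes also stayed mostly within 2-fold, with 2 of 35 measured genes higher and 1 lower, against 8.23% and 4.38% of all genes. Their median of 0.08 changed sign between scalings. The NMDA receptor subunit Grin2d stood at 1.02 and 2.42, which is 2.64-fold higher. The obligatory subunit Grin1 stood at 0.31 and 0.95, and Grin2b, well above background in sham alone, was at least 5.26-fold lower. The metabotropic receptor Grm6 was higher by 1.97, and Cacng3, an AMPA receptor partner, was lower by 1.05. The AMPA subunit Gria2 was higher by 0.98 on its brightest probe and by 0.23 on the next.

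Ion channels that set firing at rest showed few differences past 2-fold. Of 50 measured potassium channel genes 5 were higher and 1 lower, around a median of 0.13. Of these 50 genes 30 lay in the dimmer part, where 12.3% of all genes were higher and 6.49% lower. Inward rectifier and leak channels, which hold the resting potential, made up 4 of the 5 higher genes. They were Kcnj10 (1.71), Kcnj9 (1.41), Kcnk3 (1.36) and Kcnj14 (1.34), and their family of 19 measured genes had a median of 0.32, or 0.25 after cyclic loess, with 12 in the dimmer part. Hcn2, a pacemaker channel, stood at −1.82 and −3.45, which is 3.08-fold lower. Hcn4 stood at −3.15 and −3.92, and Hcn3 was lower by 0.49 on its brightest probe and higher by 1.71 on the next, so the direction of Hcn3 was not settled. Scn9a, a sodium channel of sensory neurons, was higher on both probes, by 1.30 and 1.99.

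The lowest difference of the 6351 measured genes was that of Cacna1a, the pore of the P/Q-type calcium channel that triggers transmitter release. Its 1 measured probe stood at 1.97 in sham (22332 intensity units) and at −4.78 at day 1 (190 units), which is 108-fold lower. Other pore genes lay within 2-fold or above it, with Cacna1b at 0.54, Cacna1c at 0.37 and Cacna1i at 1.35, so the difference was not shared by the family. The auxiliary subunit Cacna2d3 was lower by 2.13. At the nodes of Ranvier, the adhesion protein Nfasc stood at −0.73 and −4.69, which is 15.6-fold lower, while its axonal partner Cntn1 stood at 0.17 and 1.73, which is 2.95-fold higher.

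Synaptic vesicle genes were centred on 0, with 5 of 43 higher and 3 lower, against 8.23% and 4.38% of all genes. Sv2c, a vesicle glycoprotein, stood at −4.27 and −0.17, which is 17.2-fold higher, while its relative Sv2b was lower by 1.65. The calcium sensor Syt4 was higher by 2.28 and Syt11 lower by 1.30. Markers shared by most neurons were near sham, and none of 24 was past 2-fold. Their median was −0.09, with neurofilament Nefh at 2.05 and 1.37, the tubulin Tubb3 at 0.80 and 1.48, and the hydrolase Uchl1 at 3.46 and 3.51. Of 39 calcium signalling genes 2 were higher and none lower, and of 19 postsynaptic scaffold genes Homer2 was higher by 1.66 and none was past 2-fold lower.

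Peptide, cholinergic and monoamine genes held more higher than lower members, as did all genes, with 8.23% higher and 4.38% lower. Of 58 measured neuropeptide and receptor genes 12 were higher and 4 lower, of 18 cholinergic genes 6 were higher and 1 lower, and of 31 monoamine genes 7 were higher and 2 lower. Their medians were 0.34, 0.54 and 0.44, or 0.28, 0.51 and 0.41 after cyclic loess. Most of these genes are faint, with 35, 10 and 22 of them in the dimmer part. In that part 12.3% of all genes were higher and 6.49% lower. The part of signal level in these counts was not tested.

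Among peptides, Calcb, the beta form of calcitonin gene-related peptide, stood at −2.32 in sham and 0.17 at day 1, which is 5.60-fold higher. Adcyap1, which encodes PACAP, was higher on each of 3 probes, by 1.15, 1.25 and 1.48. Hcrt, the orexin precursor, was read on 10 spots at −0.72 and 0.47, and Cartpt, the CART precursor, on 10 spots at −1.95 and −0.81. Pdyn, the dynorphin precursor, stood at −3.45 and −1.41, and the gastrin-releasing peptide Grp at −3.75 and −1.73. Uts2, which encodes the vasoactive peptide urotensin, was higher by 2.47. The precursor of melanin-concentrating hormone, Pmch, went the other way at −2.89 and −5.37, which is 5.59-fold lower. Among receptors Cckar, for cholecystokinin, was read on 10 spots at −4.29 and −1.89, which is 5.28-fold higher. Oprm1, the mu opioid receptor, was read on 10 spots at −3.60 and −5.00, which is 2.64-fold lower, and the calcitonin receptor Calcr was lower by 1.33. Penk, the enkephalin precursor, stood at 1.17 and 1.26, so opioid peptides did not differ together.

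Acetylcholine acts on receptors in the vestibular nuclei, and motor neurons nearby release it at their muscles. Slc18a3, which loads acetylcholine into vesicles, stood at −0.25 and 1.57, which is 3.52-fold higher, and Slc5a7, which takes up choline, at −2.43 and −0.65, which is 3.44-fold higher. Chrna7, a nicotinic receptor subunit, was read on 10 spots at −1.77 and 0.44, which is 4.63-fold higher with a standard error between spots of 0.043. Chrna3 was higher by 1.40 and Chrna4 lower by 1.49. The muscarinic receptor Chrm1 was higher by 1.11 and the esterase Ache stood at 0.03 and −0.06. The motor neuron markers Prph and Isl1 were higher by 0.51 and 1.02, and their summed level was 3.03 in sham and 4.37 at day 1. That sum leaves out 1 further motor neuron marker, which was well above background in sham alone. The share of motor neurons in the dissected tissue was not tested.

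Among monoamine genes Th, the first enzyme of dopamine and noradrenaline synthesis, was read on 10 spots at −2.94 and −1.40, which is 2.91-fold higher. Tph2, the enzyme of serotonin synthesis in neurons, stood at −1.09 and −3.17, which is 4.24-fold lower, while the serotonin transporter Slc6a4 was higher by 0.83 on its brightest probe and lower by 0.26 on the next. The dopamine receptor Drd3 was higher by 2.78, Htr2b by 1.5004 and Hrh4 by 1.51, each in the dimmer part, and Htr1b was lower by 1.48. The median of monoamine synthesis and transport genes was 0.37, and −0.04 when only brighter probes were kept.

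**Figure D4:**
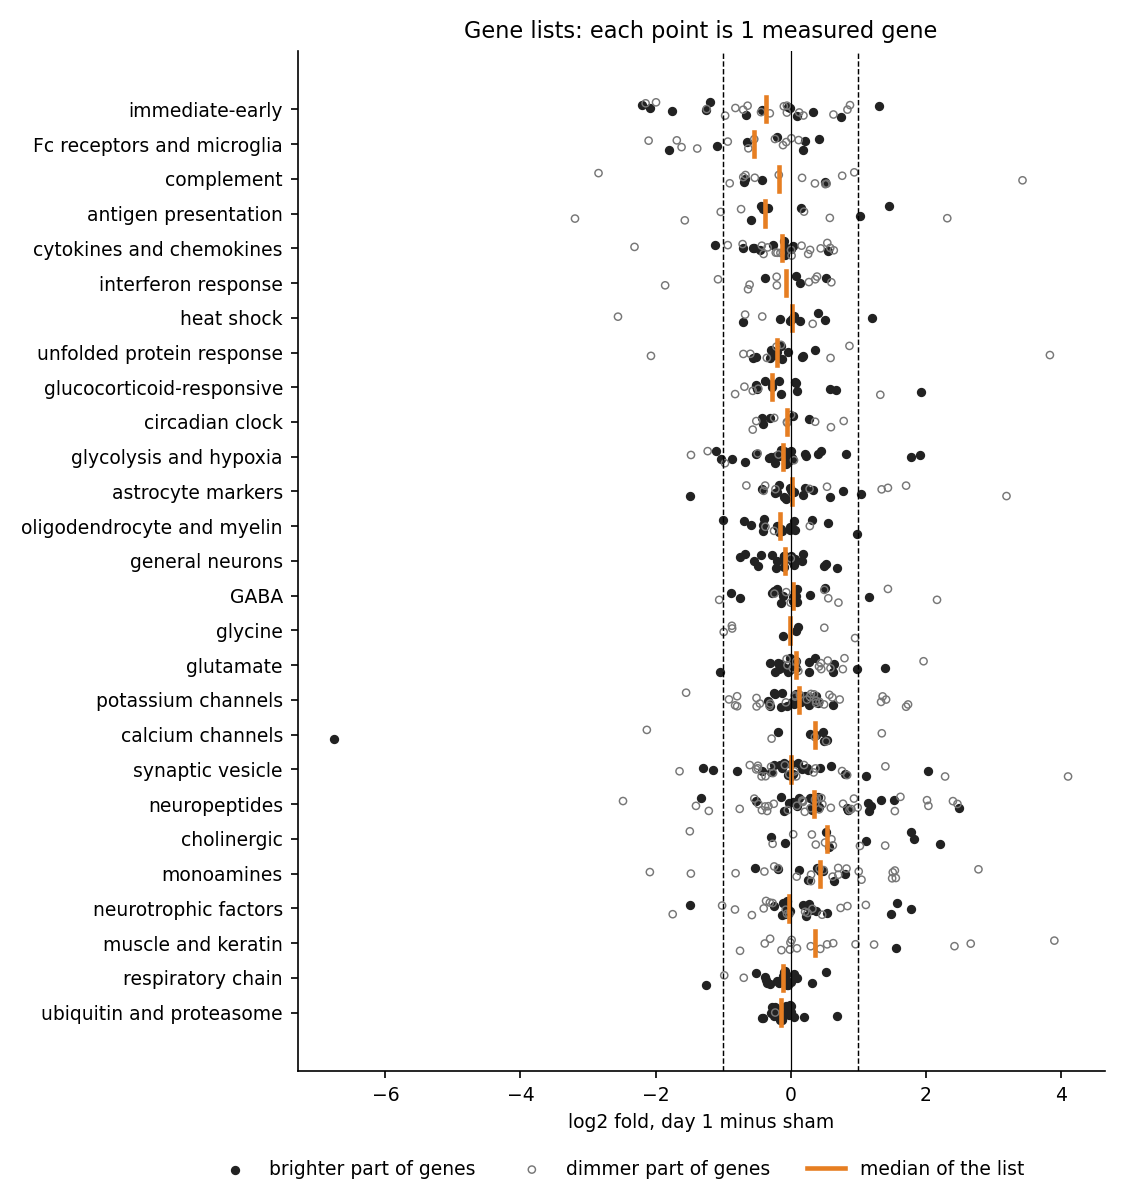
Log2 difference of day 1 minus sham (horizontal axis) for the measured genes of 27 lists, 1 point per gene, filled where the gene lies in the brighter part and open where it lies in the dimmer part, with the median as an orange bar and dashed lines at 2-fold. The cholinergic list has a median of 0.54 and the early response list one of −0.36.

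Glia and vessels differed in single genes. Of 27 measured astrocyte genes 5 were higher and 1 lower, against 8.23% and 4.38% of all genes. Their median of 0.02 changed sign between scalings. S100b, a calcium-binding protein of astrocytes, was read on 10 spots at −4.11 in sham and −0.91 at day 1, which is 9.14-fold higher with a standard error between spots of 0.072. The astrocyte filament Gfap, also on 10 spots, stood at −0.35 and −0.45, and the water channel Aqp4 at −1.63 and −1.58. The growth factor Fgf2 was lower by 1.497 on its brightest probe and higher by 0.12 on the next. Summed over 17 markers of resting astrocytes, the level was 40.5 in sham and 41.9 at day 1, so the list as a whole did not share the difference of S100b. Of 20 oligodendrocyte genes none was higher and 1, the actin-linked myelin protein Ermn (−0.33 and −1.34), was lower. Mbp, a main protein of myelin, was lower by 0.69 and 0.51 on its 2 probes. In vessels, Eng, an endothelial coreceptor, was higher by 1.74 and Nos3, the endothelial nitric oxide synthase, by 1.03 on 9 kept spots, while the pericyte markers Pdgfrb and Tagln differed by 0.998 and −0.94.

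Markers of neighbouring tissue were compared because the dissection can take in other cells. Of 10 measured cerebellar markers 2 were higher and none lower, against 8.23% and 4.38% of all genes. Both, Pax6 and Zic1 (each 1.16), mark granule cells. The summed level of the 3 measured granule cell markers was 0.834 in sham and 1.57 at day 1, against 10.3 and 10.8 for 7 Purkinje cell markers. That sum leaves out 2 further granule cell markers that were well above background in sham alone, and none was so at day 1 alone. Of 7 markers of choroid plexus and ependyma 2 were higher and 1 lower, with 6 of the 7 in the dimmer part. The choroid transporter of thyroid hormone Ttr stood at −1.14 and −2.35. Of 18 measured muscle and keratin genes 5 were higher and none lower, with Tnni3 at −5.46 and −1.56, and 17 of the 18 lay in the dimmer part. In that part 12.3% of all genes were higher and 6.49% lower. The part of dissection in these values was not tested.

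Growth and injury signals were mixed. Beside the counts of this paragraph, 8.23% of all genes were higher and 4.38% lower, with 12.3% and 6.49% in the dimmer part. Of 37 measured neurotrophic genes 4 were higher and 3 lower. Nrtn, a ligand of the GDNF family, stood at −0.98 in sham and 0.59 at day 1, and Gfra3, a receptor of the same family, was higher by 1.48. The shared neurotrophin receptor Ngfr was read on 10 spots at −1.96 and −3.71, which is 3.36-fold lower. The trk receptor Ntrk2 stood at 3.27 and 3.16. Of 28 genes of nerve injury and axon growth 2 were higher and 2 lower. Rtn4, which encodes the growth inhibitor Nogo, stood at −0.61 and −2.04, while its receptor Rtn4r was higher by 1.05. The growth cone protein Gap43 stood at 2.70 and 2.77. Of 24 matrix genes 5 were higher and 1 lower. Hapln3, a link protein of hyaluronan matrix, was higher by 3.62, Timp1, a protease inhibitor, was higher by 1.04 on 10 spots, and Bcan, a proteoglycan of perineuronal nets, was lower by 1.27 on its brightest probe and higher by 0.48 on the next. Among 27 cell death genes 3 were higher and none lower, each faint, namely Birc3 (2.46), Bik (2.36) and Casp12 (1.62).

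Most housekeeping genes lay within 2-fold of sham, as did most of all genes, of which 8.23% were higher and 4.38% lower. None of 56 measured ribosomal protein genes, 22 proteasome genes or 18 cell division genes was past 2-fold, and their medians were −0.05, −0.14 and −0.05. Of cell division genes well above background on 1 array alone, the ribonucleotide reductase subunit Rrm2 was at least 8.30-fold higher, Cdca8 at least 2.19-fold lower and the cyclin-dependent kinase Cdk1 at least 2.01-fold lower. Of 28 respiratory chain genes 1 was past 2-fold, the ATP synthase subunit Atp5f1a at 2.26 and 1.00. In cholesterol synthesis and transport 1 of 26 genes was higher, Fdft1 (1.04), and 2 were lower, Srebf2 (−1.21) and Npc2 (−1.03).

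Agreement between probes sets a limit on any single gene. For 1139 genes with at least 2 measured probes, the differences of the 2 brightest probes lay a median of 0.34 log2 units apart, with a 90th percentile of 1.30. Across these genes, which are not independent replicates and whose probes share the same 2 RNA pools, Pearson's r was 0.19. It was 0.25 in 871 genes of the brighter part and 0.099 in 268 of the dimmer part. Of 51 genes at least 2-fold higher by the brightest probe, the next probe was past 2-fold the same way in 12, on the same side of 0 in 35 and past 2-fold the other way in 2. Of 22 lower genes the counts were 5, 14 and 0.

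Where every measured probe was past 2-fold the same way, 12 genes were higher and 5 lower. The higher genes included Klc3, a kinesin light chain (1.70 and 1.55), Adcyap1 with its 3 probes, Creb1, the factor that binds the CRE (1.71 and 1.28), the sodium channel Scn9a (1.30 and 1.99), Anxa5, a phospholipid-binding annexin (1.18 and 2.11), Cblc, a ubiquitin ligase (1.12 and 2.48), and Mat2a, which makes S-adenosylmethionine (1.02 and 1.02). Tnfrsf14, Hnf4a, Gpc3 and Gpr153 were also among them. The lower genes were Slc4a10, a bicarbonate transporter of neurons (−1.66 and −1.25), Anxa4 (−1.43 and −1.06), the kinases Cdc42bpa (−1.11 and −1.18) and Dapk3 (−1.04 and −1.60), and Ndrg1, a protein of Schwann cells and oligodendrocytes (−1.04 and −1.10).

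**Figure D5:**
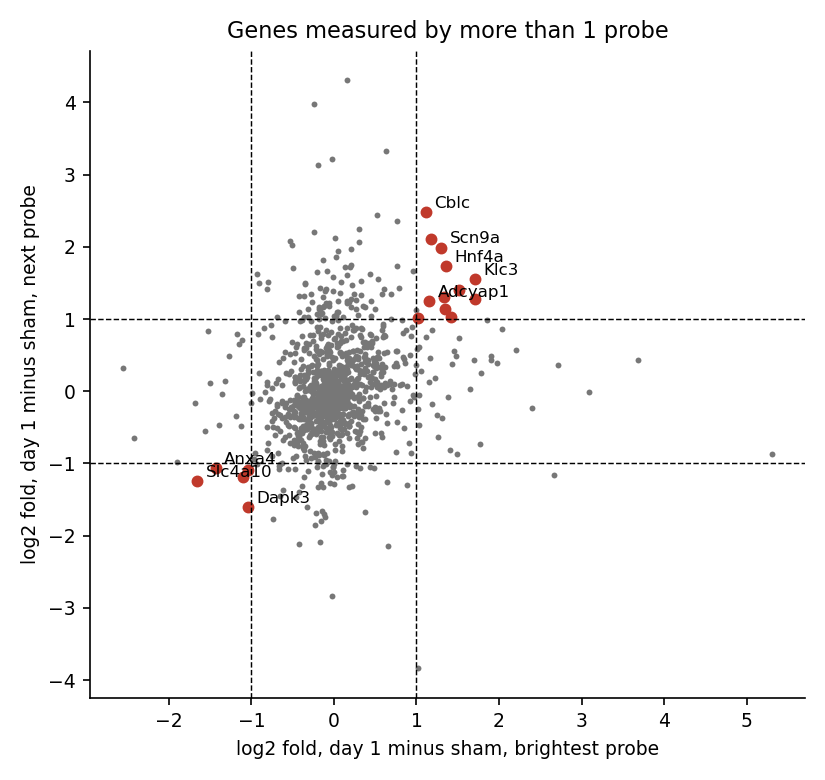
Log2 difference of day 1 minus sham by the brightest probe (horizontal axis) and by the next probe (vertical axis) for 1139 genes, with dashed lines at 2-fold. The 17 genes with every measured probe past 2-fold the same way are in red, 12 higher and 5 lower, and many other genes past 2-fold on 1 axis lie near 0 on the other.

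Genes read on 10 spots have the smallest error within an array. Of 144 such genes 15 were past 2-fold upwards and 9 downwards, against 8.23% and 4.38% of all genes. Besides S100b, Cckar, Chrna7, Th, Hmox1, Hcrt, Cartpt, Adcyap1, Timp1 and Nos3, the higher genes included Ppara, a lipid-sensing nuclear receptor (2.46), Scnn1a, a sodium channel subunit (1.51, and 0.73 on its other probe), Hnf4a, a hepatocyte factor (1.36), and Myc (1.11). Besides Hspa1a, Icam1, Egr1, Ngfr and Oprm1, the lower genes included the kinases Src (−1.25) and Ptk2b (−1.14), and the natriuretic peptide receptor Npr1 (−1.08).

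In the brighter part, the gene highest at day 1 was Tmem98, a membrane protein, at −4.59 in sham (236 intensity units) and 1.81 at day 1 (18391 units), which is 84.8-fold higher on 1 spot per array. The receptor kinase Tyro3, which clears dying cells, followed at −2.03 and 0.63. Further down were the protocadherin Pcdhga9 (2.31), Fkbp1b, a regulator of calcium release channels (2.24), Wsb1 (2.21), the mast cell tryptase Tpsb2 (2.08), the vesicle protein Rab3b (2.03, and 0.87 on its next probe), the urea transporter Slc14a1 (2.03), Rpain (1.99), the mitochondrial carrier Slc25a34 (1.97) and Sqstm1, an autophagy receptor (1.97, and 0.39 on its next probe). Below Cacna1a at the low end stood Cd82, a tetraspanin, at 1.72 and −2.28, which is 15.98-fold lower, and Nr2c1, a nuclear receptor, at −0.01 and −3.17. Further lower genes were Sec14l2 (−2.58), Cyp4f5 (−2.29), Akr7a3 (−2.16), the amino acid transporter chain Slc3a2 (−2.14), Nherf1 (−2.04), Zbtb9 (−2.001), the RNA polymerase subunits Polr3k (−1.96) and Polr3d (−1.90, and −0.98 on its next probe), Glycam1 (−1.86) and Olfm2 (−1.84).

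A further 171 genes were well above background at day 1 and not in sham, and 538 in sham and not at day 1. Bounds were computed for 166 and 532 of these, leaving out provisional gene names and probes with no level on the dim array. Their bounds compare the bright level with a ceiling for the dim one, which is the lowest signal well above background on that array or the probe's own value if larger. A bound of at least 2-fold held for 145 of the first and 89 of the second, and one of at least 4-fold for 42 and 15. The lowest signal well above background was 66.9 intensity units in sham and 109.0 at day 1. A gene seen at day 1 alone thus starts with a larger bound than one seen in sham alone. The counts of the 2 sides therefore cannot be compared with each other. The largest bounds on the higher side were those of the olfactory receptors Or8u9 (14.02), Or5aq1b (11.7) and Or52e19 (11.2), then Rims4, a presynaptic protein (10.8), and Crisp3, a secreted protein (10.6). On the lower side stood Pank4 (46.2), the intracellular growth factor relative Fgf11 (32.6), Zfp219 (13.9), Ocstamp, of fusing osteoclasts (10.9), and Gabrb2 (10.0).

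Olfactory receptor genes, a large family that brainstem tissue is not known for, leaned upwards where measured on both arrays. Of 1089 on the array 289 were measured, 76 were past 2-fold upwards and 5 downwards, and the median was 0.63. Of these 289 genes 247 lay in the dimmer part, where 12.3% of all genes were higher and 6.49% lower. Of receptors with a bound alone, 63 were well above background only in sham and 42 only at day 1. Over all genes with a bound these counts were 532 and 166, so sham-only genes were more frequent across the array as well. Or2t48 and Or2n1l were exceptions in signal, at −1.85 and 0.31 and at −1.56 and 0.50. The family holds near-identical copies whose probes may share signal.

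Probes without a gene name showed similar shares. Of 5949 measured probes named by Ensembl transcripts, 9.56% were at least 2-fold higher and 4.61% lower, against 8.31% and 4.56% of 7670 probes named through RefSeq. Among 3561 other RefSeq probes the shares were 7.89% and 3.40%, and among 12666 probes for expressed tags and other transcripts 6.26% and 3.20%. In the brighter part, 2018 Ensembl probes were measured, of which 8 differed 4-fold or more upwards and 8 downwards. The farthest apart were ENSRNOT00000004600, at −3.57 in sham and 0.71 at day 1, and ENSRNOT00000024737, at 1.84 and −3.97.

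Differences of day 7 against the same sham array can be set beside those of day 1, but both share that array. Any error in a sham value enters both differences. The share of all genes past 2-fold at day 7 is not given here, so the counts below have no baseline. Of 462 genes higher at day 1 with a day 7 value, 181 were past 2-fold the same way at day 7, 232 lay within 2-fold and 49 were past 2-fold the other way. Of 262 lower genes the counts were 103, 150 and 9. Btg2 (−2.20 at day 1 and −2.16 at day 7) and Ccn1 (−2.09 and −2.11) had like values on both days, as did Cacna1a (−6.76 and −6.70). Egr1 (−1.76 and 0.31), Fos (−1.24 and −0.12), Cd74 (−3.19 and −0.49), C3 (−2.84 and −0.22), Fcgr3a (−2.10 and −0.07) and Tlr2 (−1.80 and 0.24) were past 2-fold at day 1 and within it at day 7. Creld2 (3.84 and 4.06), Pdyn (2.04 and 2.04) and Cckar (2.40 and 2.51) were past 2-fold higher on both arrays.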

How the data were processed

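Total RNA (1 µg, Cy3) of vestibular nuclei was hybridised to Agilent 1-colour arrays, per the labels' protocols. The deposited values are linear processed intensities from which the scanner software, Agilent Feature Extraction 10.7.3.1 per the file headers, had subtracted background. They were not scaled between arrays. The authors' series table held the same intensities within 0.1 percent for 99.3% of 34687 probes in sham and 99.4% at day 1.

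From these, log2 intensity minus the 75th percentile of non-control spots was computed, without spots marked as outliers (163 and 224), and spots of a probe were averaged. A probe was measured when both arrays flagged it as well above background and neither as saturated. A gene took its measured probe with the highest mean. Names came through RefSeq accessions in a GRCr8 table (10768 of 41012 probes). Rules for probes named by other gene names found none, since the files hold no such column. Of 2548 genes without a measured probe, 1764 were not well above background on either array and 70 were saturated.

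Named genes are the 15 farthest each way in the brighter part, genes with every probe past 2-fold, genes on 10 spots, the 5 largest bounds each way, and 5 members of each list. Further list members were named after their values were seen. A few genes met by these rules are left out of the text. The members and lists were chosen with earlier results of these data known. Differences were counted at 2-fold, with no test. Counting was tested on simulated data. Alternatives were other scalings and normalizations, another background correction, other filters on dim probes, the mean over probes, kept outlier spots and the authors' table. They used limma 3.58.1 in R 4.3.3, with other steps in Python 3.11.15.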

Additional observations from a re-analysis of the deposited data

Results flagged for a closer look

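Some genes lay past 2-fold one way at day 1 and past 2-fold the other way at day 7. Each value is a log2 difference from the same sham array, on 1 array per day, and the difference between the days was not tested.

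Of cholinergic and peptide genes 5 were higher at day 1 and lower at day 7, while the day 7 medians of both lists lay above 0, at 0.16 and 0.30. The values were 1.82 and −1.66 for the acetylcholine vesicle transporter Slc18a3, 1.78 and −1.43 for the choline transporter Slc5a7, 2.48 and −2.38 for Calcb, 1.14 and −1.05 for Cartpt, and 1.19 and −1.30 for Hcrt. The growth factors Nrtn (1.57 and −2.19) and Vegfa (1.79 and −3.44) had the same pattern, and the next probe of Vegfa gave 0.25 at day 1.

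Metabolic and other genes in this direction were hexokinase Hk2 (1.92 and −2.37), the squalene synthase Fdft1 (1.04 and −1.21), the mitochondrial carrier Slc25a34 (1.97 and −3.53), the autophagy receptor Sqstm1 (1.97 and −1.23), the class I gene RT1-S3 (2.32 and −1.0015) and the olfactory receptors Or2n1l (2.06 and −1.59) and Or2t48 (2.16 and −1.51). The kinase Ptk2b went the other way, with −1.14 at day 1 and 1.07 at day 7.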

How the results depend on the processing

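No paired analysis was possible because each group has 1 array. Of 278 named genes with a value, 172 were past 2-fold, 136 of these kept their side of 2-fold under each of 11 alternatives that gave a value, and none changed sign. Counts moved by over 1.5 times in 2 alternatives. With brighter probes alone, 121 genes were higher and 66 lower, and 28 list members were higher and 21 lower. Without the filter on dim probes, 936 genes were higher and 643 lower, and 112 list members were lower. The share of higher genes among those past 2-fold was 65.3%, and 53.5% with no scaling, 55.2% with median scaling, 55.6% with quantile normalization and 55.9% with cyclic loess.

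Some list medians changed sign. As reported they were −0.99 for class II genes, −0.50 for hindbrain factors, 0.36 for peptide receptors, 0.37 for monoamine synthesis genes, 0.29 for guidance genes, −0.37 for antigen presentation and 0.46 for lymphocyte markers. With brighter probes alone, class II genes had a median of 0.31, hindbrain factors 0.0079, peptide receptors −0.031, monoamine synthesis genes −0.035 and guidance genes −0.54. Without the filter, class II genes had 0.15, antigen presentation as a whole 0.15, lymphocyte markers −0.039 and hindbrain factors 0.0079. The mean over probes turned Bdnf to 0.36, Bhlhe41 to 0.33 and Hcn3 to 0.61, since their probes disagree. Both filters change which genes are counted, and other causes were not tested. Names through RefSeq alone equal the values reported, and normexp on mean signals was not run because the files hold median signals, so normexp on medians was added after seeing the data. Signal over background limits the dimmest genes, where 23.8% were past 2-fold with no replicate array.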
